A study of Mus musculus with 6 samples.

Results

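The genes described here lie in the first 20 Mb of mouse chromosome 4 (GRCm38), the end of the chromosome next to the centromere. A list named 36 of them, and all 36 were found among the 21959 genes of the count table. The members were chosen by position and with the log2 fold changes between the 2 lines in these same libraries known, so their values are a description and carry no test. The table holds 66 genes of this stretch, and the other 30 are used below for comparison. Of the 36 members, 30 passed the filter on low counts and 6 did not. The outermost members were Tmem68, at 3549041 to 3574853, and Wwp1, at 19608303 to 19708993. In mouse, this stretch carries genes of very different functions, which share their place on the chromosome and not a pathway. Neighbouring mammalian genes are mostly transcribed from promoters of their own, although genes that start head to head can share a regulatory region. A list ordered by position therefore brings together proteins that work in unrelated parts of the cell.

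RNA was sequenced from MTC, a mouse gastric adenocarcinoma cell line, and from MTC-R, a derivative resistant to paclitaxel (PTX), with 3 libraries per line. Paclitaxel is a chemotherapeutic agent that stabilises microtubules and so stops cells in mitosis. MTC-R came from MTC after over 30 cycles of exposure to PTX, and the sample labels call the lines MPC and MPC-PTX. The comparison addresses how the RNA of the resistant line differs from that of its parent.

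Both groups carry the genotype given as CDH1-/-;Trp53-/- and come from organoids with floxed Cdh1 and Trp53 alleles and a Mist1-CreER driver, passed through a subcutaneous tumour in BALB/c nude mice. The organoids themselves came from C57BL/6 J mice, per the study. Each line is 1 clone, so a feature of the clone and a feature of resistance cannot be told apart. Nothing in the labels says that the libraries of a line came from separate cultures, and p-values then measure only the spread between these libraries. All 6 libraries belong to batch 1.

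The libraries held 16574580 to 23148182 counts and 13897 to 14295 detected genes. MTC replicate 3 stood apart from the other MTC libraries: the chi-square value per gene was 32.4 and 61.1 in its 2 pairs, 15.0 between MTC replicates 1 and 2, and 1.83 to 3.36 between MTC-R libraries. Values that moved by over 1.5 times without this library are given with and without it where they are described. Cdh1 was counted at 136, 132 and 135 CPM (read counts relative to the TMM-scaled library size) in MTC and 131, 136 and 132 in MTC-R, and Trp53 at 5.21, 3.25 and 5.77 and at 6.07, 5.86 and 6.59. Counts summed over a whole gene do not show which exons are missing, so these levels check neither deletion. The 7 epithelial markers summed to 8966 to 10376 CPM in MTC and 5513 to 5679 in MTC-R, and 6 of them were called lower. Gastric markers summed to 323 to 460 CPM and 1.84 to 2.32, with Tff1, Tff2, Gkn2 and Pgc at 0 in all libraries. Fibroblast markers summed to 9.83 to 10.9 and 8.63 to 9.92 CPM with 1 of 8 called lower, leukocyte markers to 11.1 to 12.6 and 9.39 to 10.7, with Cd3g at 0, and endothelial markers to 2.68 to 3.13 and 2.34 to 2.85. The part of these marker levels in the values below was not tested.

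The members were lower in MTC-R as a block, each by a moderate amount. Their median log2 fold change, MTC-R against MTC, was -0.76 (quartiles -0.98 and -0.58), a level 59.2% of that in MTC, while the median of all 11795 tested genes was 0.04 (quartiles -0.19 and 0.27). Of the 30 tested members, 28 had a log2 fold change below 0, against 44.8% of all tested genes, and 27 lay between -1.5 and -0.4. The remaining 3 were Tox, far lower, and the neighbours Plag1 and Chchd7, both higher in MTC-R. In bulk RNA, fewer cells of a type and less RNA per cell cannot be told apart.

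By edgeR's quasi-likelihood test with an adjusted p below 0.05, 21 members were called lower, where 15.6% of all tested genes were, and 1 member was called higher, where 14.1% were, so that 22 of 30 were called in either direction, against 29.7% of all tested genes. With an unadjusted p below 0.05 and a log2 fold change under -1, 8 members counted as lower, against 4.34% of all tested genes. In 24 members every MTC-R library lay below every MTC library, as in 22.7% of all tested genes, and in 1 member every MTC-R library lay above, as in 24.2%. The groups overlapped in the other 5, which were Plag1, Ubxn2b, Trp53inp1, Dpy19l4 and Wwp1. Left without MTC-R replicate 1 or 2, the test called 13 or 12 members lower. Over all genes the same fits called 1122 and 1077 lower, against 1841 with all 6 libraries. Because these calls come from the contrast that chose the members, nothing is read from the counts.

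The block shift was alike in the 3 MTC-R libraries. Taken as the deviation of log2 CPM from the MTC mean, the median over the 30 members was -0.11, -0.06 and 0.20 for MTC replicates 1 to 3. For MTC-R replicates 1 to 3 it was -0.73, -0.72 and -0.67. MTC replicate 3 was thus the highest of all 6 at these genes, and in 23 of the 30 members it lay above MTC replicates 1 and 2. Without it the median log2 fold change was -0.65, and 23 members were called lower, against 27.1% of all genes tested there.

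**Figure D1:**
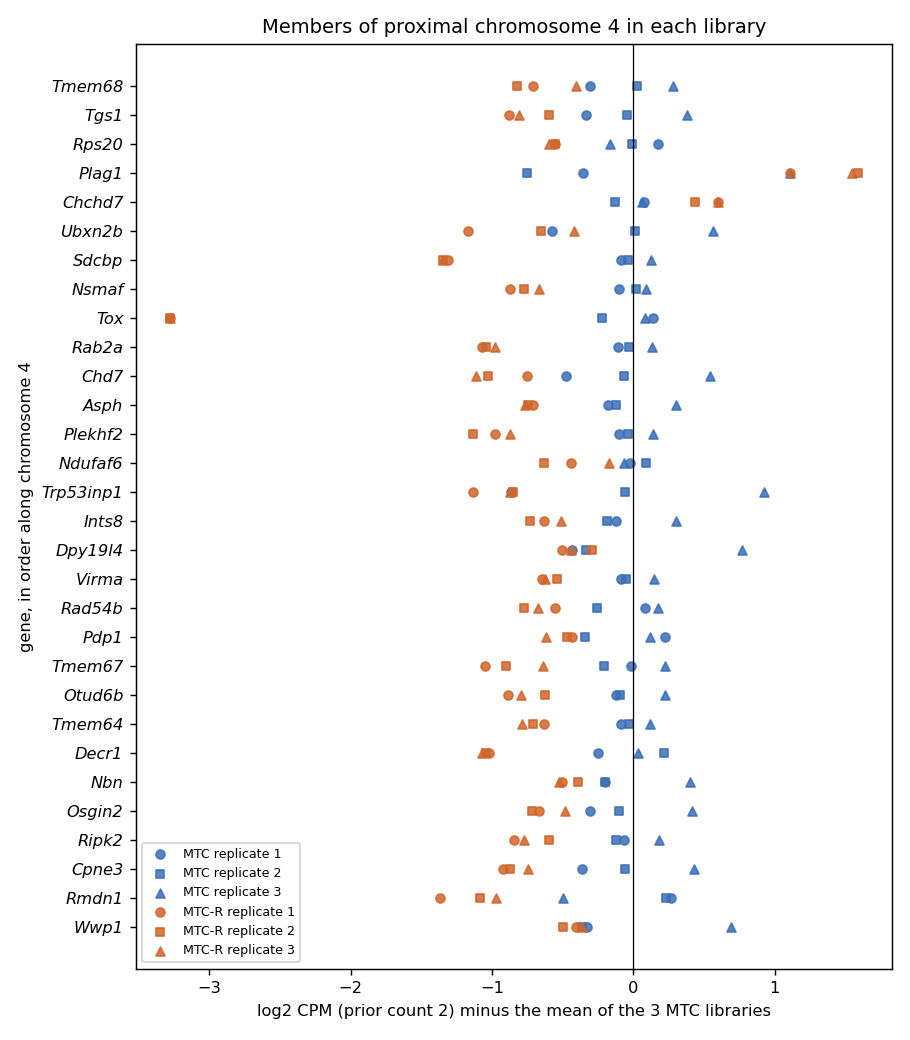
Log2 CPM (prior count 2) of the 30 tested members in each of the 6 libraries, as the difference from the mean of the 3 MTC libraries, with genes in their order along chromosome 4 on the vertical axis. Orange MTC-R points lie left of every blue MTC point in 24 genes, Plag1 and Chchd7 lie to the right, and the triangle of MTC replicate 3 is often the rightmost point.

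Transcripts of the members were poorer in G and C than most. Their median GC content was 42.9%, against 49.8% over all tested genes, their median length was 3825.5 and 3413 bases, and their median level in MTC was 14.1 and 35.0 CPM. The ratio of MTC replicate 3 to the mean of replicates 1 and 2 had a median of 1.24 over the members and 0.99 over all tested genes. After GC content and transcript length were corrected for within each library, the per-library medians became 0.00, 0.02 and -0.01 in MTC and -0.86, -0.80 and -0.80 in MTC-R. The median log2 fold change was then -0.86, and 27 members were called lower, against 19.9% of all genes. MTC replicate 3 then lay level with the other MTC libraries at these genes. The correction is built to remove the trend of each library with GC content and length. The cause of the difference between the lines was not tested.

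**Figure D2:**
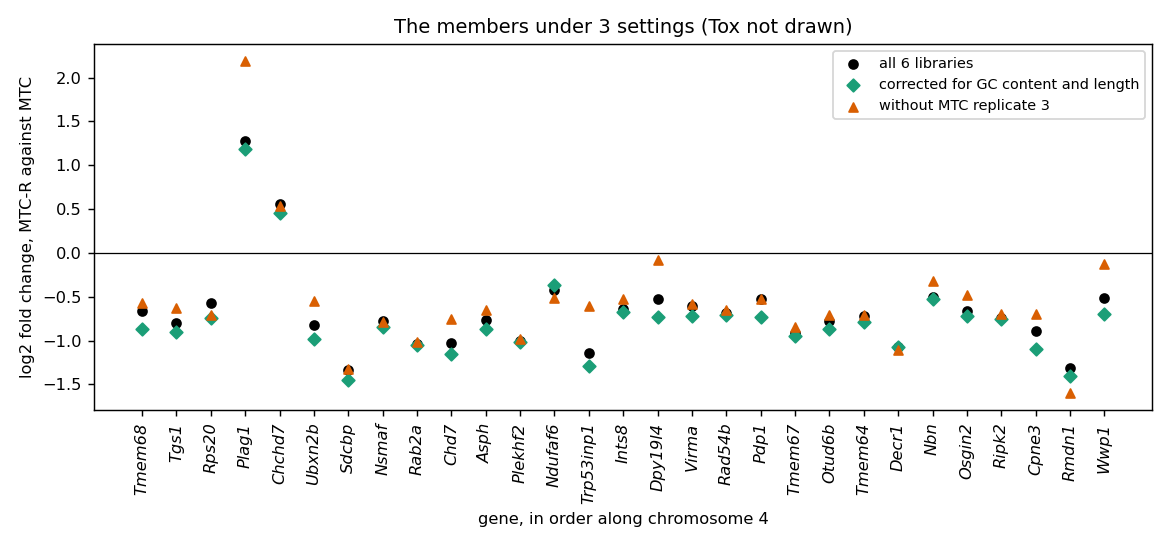
Log2 fold change of 29 tested members (Tox, at 0 in MTC-R, is not drawn), in order along chromosome 4, from all 6 libraries (circles), with the correction for GC content and length (diamonds) and without MTC replicate 3 (triangles). All 3 marks of a gene lie on the same side of 0; Dpy19l4, Wwp1, Trp53inp1 and Plag1 move most without MTC replicate 3.

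Of the members in membrane traffic, adhesion and the cilium, all 7 tested were called lower, against 15.6% of all tested genes. Their median log2 fold change was -1.001. The members were chosen with this contrast known, so nothing is read from the number of calls in this or the following groups. Sdcbp encodes syntenin-1, a PDZ adaptor that binds the tails of syndecans and takes part in making exosomes. It was counted at 144, 150 and 167 CPM in MTC and at 61.9, 60.3 and 60.4 CPM in MTC-R. The groups were far apart and the MTC-R libraries nearly equal, at 39.6% of the MTC level (log2 fold change -1.34, SE 0.08). Sdcbp, at 6365650 to 6408423, overlaps Nsmaf on the opposite strand over 12217 bases, and the use of strand in counting is not given in the sources used here.

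Rab2a, a small GTPase that works between the endoplasmic reticulum and the Golgi, was at 128, 135 and 151 CPM in MTC and 65.4, 66.4 and 69.6 CPM in MTC-R. Every MTC-R library was thus close to 1 level, 48.8% of MTC (log2 fold change -1.04, SE 0.08). Per kilobase of annotated exon it had the highest value of the members, at 64.5 CPM per kb in MTC and 31.5 in MTC-R. The length used is that of all annotated exons together, 2133 bases for Rab2a and 4080 for Rps20. Rps20 had the higher mean in MTC, 212 against 138 CPM. Which exons were transcribed was not measured, so this order is not one of transcript abundance. Cpne3, a calcium-dependent phospholipid-binding copine, was at 49.7, 61.5 and 86.3 CPM in MTC and 33.8, 35.0 and 38.1 CPM in MTC-R. Its MTC libraries spread widely, with replicate 3 the highest, and its log2 fold change went from -0.89 (SE 0.20) to -0.70 without that library.

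Rmdn1, a regulator of microtubule dynamics, was a weakly counted gene. Its levels were 1.54, 1.495 and 0.865 CPM in MTC and 0.427, 0.541 and 0.594 CPM in MTC-R. Here MTC replicate 3 was the lowest MTC library and still lay above all MTC-R libraries (log2 fold change -1.32, SE 0.33). The other members of the group were Plekhf2, an endosomal PH and FYVE domain protein, at -1.001, Tmem67, the transition zone receptor meckelin of the primary cilium, at -0.91, and Asph, an aspartate beta-hydroxylase of the endoplasmic reticulum, at -0.76 on the log2 fold change scale.

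Among members that act on RNA or gene control, 6 of the 7 tested were called lower, against 15.6% of all tested genes. Their median log2 fold change was -0.65, and 1 of these calls is Tox, described below. Rps20, a protein of the small ribosomal subunit, was at 238, 209 and 188 CPM in MTC and 144, 143 and 139 CPM in MTC-R. The groups did not overlap, and MTC replicate 3 was the MTC library nearest to MTC-R (log2 fold change -0.58, SE 0.09). Ribosomal protein genes have many processed copies in the genome, and how reads shared with such copies were counted is not given in the sources used here.

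Tox, an HMG-box nuclear factor best known from T cells, was the member with the widest gap. Its counts were 18, 14 and 19 in MTC, and no MTC-R library held any. Summed over the libraries of a line and with 3 counts allowed for a total of 0, it was at least 17.5-fold lower in MTC-R. It passed the filter through the MTC libraries alone, so it had to differ. In MTC it was itself a rare transcript, at 0.864 ± 0.125 CPM (SD, n = 3).

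Chd7, a chromatin remodelling helicase, had a log2 fold change of -1.03 (SE 0.27), and -0.75 without MTC replicate 3. Tgs1, which makes the trimethylguanosine cap of small nuclear RNAs, was at -0.80, Ints8, a subunit of the Integrator complex that cleaves nascent RNA, at -0.65, and Virma, a scaffold of the m6A methyltransferase complex, at -0.61 on the log2 fold change scale. Ints8 overlaps Ccne2 on the opposite strand over 5622 bases.

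Plag1 and Chchd7 were the 2 members above 0. They stand head to head, with 464 bases between the annotated start of Plag1 on the minus strand and that of Chchd7 on the plus strand. Plag1, a zinc finger transcription factor activated by translocation in salivary gland adenomas, was at 0.372, 0.258 and 1.201 CPM in MTC and 1.196, 1.71 and 1.66 CPM in MTC-R. MTC replicate 3 reached the lowest MTC-R library, and the log2 fold change of 1.28 (SE 0.50) became 2.19 without it. The counts of Plag1 were 7, 5 and 25 in MTC and 28, 38 and 28 in MTC-R. It passed the filter through the MTC-R libraries, where it is high, so nothing is read from its direction or its calls. Chchd7, a small protein of the mitochondrial intermembrane space, was at 3.35, 2.89 and 3.32 CPM in MTC and 4.87, 4.33 and 4.87 CPM in MTC-R, with no overlap (log2 fold change 0.56, SE 0.14). With the correction for GC content and length Chchd7 was no longer called higher and Plag1 was.

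The other head-to-head pair made of members went the opposite way. Tmem68 and Tgs1 start 21 bases apart, on the minus and the plus strand. Tmem68, an acyltransferase that makes triacylglycerol, was at 12.1, 15.3 and 18.3 CPM in MTC and 9.14, 8.43 and 11.3 CPM in MTC-R, and Tgs1 at 8.39 to 13.8 CPM and 5.72 to 6.99 CPM. In neither gene did the groups overlap, and the log2 fold changes were -0.67 and -0.80.

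Of the 4 DNA repair and stress genes, 2 were called lower, and their median log2 fold change was -0.68. Nbn, the nibrin subunit of the complex that senses double-strand breaks, was at 10.1, 10.2 and 15.4 CPM in MTC and 8.20, 8.88 and 8.08 CPM in MTC-R. The groups were separate but close, and Nbn was not called (log2 fold change -0.51, SE 0.18, and -0.33 without MTC replicate 3). Trp53inp1, a p53-induced gene of the stress response, was at 8.18, 14.4 and 28.4 CPM in MTC and 6.75, 8.25 and 8.14 CPM in MTC-R. MTC replicate 1 lay within the MTC-R range and replicate 3 far above it, so the log2 fold change of -1.15 (SE 0.42) became -0.61 without replicate 3, and it was not called. The members called lower were Rad54b, a DNA translocase of homologous recombination, at -0.69, and Osgin2, a relative of an oxidative stress growth inhibitor, at -0.66 on the same scale.

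In the ubiquitin and signalling group 3 of 5 were called lower, against 15.6% of all tested genes, with a median log2 fold change of -0.78. Otud6b, a deubiquitinase, was at 29.5, 30.2 and 37.7 CPM in MTC and 17.4, 20.8 and 18.5 CPM in MTC-R, with separate groups (log2 fold change -0.78, SE 0.13). Wwp1, a HECT-type ubiquitin ligase and the member nearest to the 20 Mb end, was at 9.62, 9.38 and 19.7 CPM in MTC and 9.10, 8.57 and 9.39 CPM in MTC-R. Apart from MTC replicate 3 its libraries were nearly level, and the log2 fold change of -0.52 (SE 0.30) became -0.13 without that library. Ripk2, the kinase that carries signals from the receptors Nod1 and Nod2, was at -0.75, Nsmaf, an adaptor of the tumour necrosis factor receptor, at -0.78, and Ubxn2b, an adaptor of a AAA ATPase, at -0.82 on the log2 fold change scale, the last not called.

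Of the 5 mitochondrial and metabolic genes, 2 were called lower and 1 higher, and their median log2 fold change was -0.53. Decr1, a mitochondrial reductase needed to break down unsaturated fatty acids, was at 12.5, 17.3 and 15.2 CPM in MTC and 7.26, 7.17 and 7.01 CPM in MTC-R. Its MTC-R libraries were almost equal and well below MTC, at 47.7% (log2 fold change -1.07, SE 0.14). Ndufaf6, an assembly factor of respiratory complex I, was at 3.56, 3.87 and 3.46 CPM in MTC and 2.65, 2.30 and 3.21 CPM in MTC-R, narrowly separate and not called (log2 fold change -0.42, SE 0.17). Pdp1, the phosphatase that activates pyruvate dehydrogenase, was at -0.53 and not called.

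The last tested members are membrane proteins. Tmem64, which takes part in calcium handling at the endoplasmic reticulum, had a log2 fold change of -0.72 and was called lower. Dpy19l4, of a family of C-mannosyltransferases, was at 12.5, 13.4 and 29.0 CPM in MTC and 11.9, 13.8 and 12.4 CPM in MTC-R. Its groups overlapped, and its log2 fold change of -0.53 (SE 0.33) became -0.08 without MTC replicate 3.

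Of the 6 members that did not pass the filter, 4 had 0 counts in all libraries. They were Runx1t1, a transcriptional corepressor, Slc26a7, an anion transporter, and the calcium-binding proteins Necab1 and Calb1, and a count of 0 over the 3 libraries of a line allows up to 0.0501 CPM in MTC and 0.0487 in MTC-R, for counting error only. Fsbp, a transcription regulator, was counted 6, 4 and 27 times in MTC and in MTC-R 6, 12 and 8 times, with overlapping groups. Its annotation lies within Rad54b on the same strand over 7927 bases, so their reads cannot be told apart with certainty. Triqk had 8, 6 and 1 counts and 7, 5 and 1 counts. These 6 genes were not tested in the main fit, so no statement on a difference is made. Fsbp entered the fits without MTC replicate 1 or 2, with log2 fold changes of -0.86 and -0.97. Both fits kept MTC replicate 3, its highest library.

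Genes of the same stretch that the list leaves out were tested, and most of those tested fell. Of the 30, 11 passed the filter, with a median log2 fold change of -0.78. Of these 11, 10 were below 0, against 44.8% of all tested genes, and 7 fell by edgeR's adjusted p, against 15.6%. Lyn, Car8, Ccne2, Esrp1 and Cdh17 were left out of the list because they were set aside with other groups of genes. That was also done with results of these data known, so they are not an untouched sample of the stretch. Of these, all but Ccne2 were called lower. Of the tested genes not set aside, Pip4p2, Cibar1 and Cfap418 were called lower, and Bpnt2, Rbm12b2 and Gm11808 were not. The stretch itself was chosen with these log2 fold changes known, so these counts are a description and no independent support. Esrp1, an epithelial splicing regulator, fell from 143, 150 and 157 CPM to 79.0, 78.9 and 81.0 CPM (log2 fold change -0.92, SE 0.06, edgeR adjusted p = 0.000104). Pip4p2, a phosphoinositide phosphatase, fell from 38.6, 41.6 and 42.1 CPM to 21.7, 20.7 and 22.6 CPM (-0.91, SE 0.08, edgeR adjusted p = 0.000286). Both sizes were close to those of the members, and both groups of libraries were tight.

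Lyn, a Src family kinase, fell by 0.92 on the log2 scale (edgeR adjusted p = 0.00385), Cibar1, a ciliary BAR domain protein, by 0.78 (edgeR adjusted p = 0.0057) and Cfap418, a cilium gene, by 0.49 (edgeR adjusted p = 0.0281). Cdh17, a cadherin of the gut epithelium, fell by 2.44 (edgeR adjusted p = 0.0012), and Car8, a carbonic anhydrase relative, went from counts of 68, 165 and 203 to counts of 0, 2 and 0 in MTC-R. Car8, like Tox, passed the filter through the MTC libraries alone and so had to differ; it is 1 of the 7 calls above, and without it 6 of 10 tested genes fell. Those 2 genes and Tox were the only tested genes of the first 20 Mb below -1.5. Bpnt2, Ccne2, Rbm12b2 and Gm11808 did not pass the test, with log2 fold changes of -0.52, -0.53, -0.57 and 0.06. Without MTC replicate 3, Bpnt2 was at -0.27, Rbm12b2 at -0.32 and Gm11808 at -0.071. With the correction for GC content and length, 10 of the 11 were called lower, all but Gm11808, where 19.9% of all genes were. Without MTC replicate 3 the number was 7, where 27.1% of all genes tested there were called lower. The call of Cfap418 was lost without MTC replicate 2, MTC-R replicate 1 or MTC-R replicate 3, and the other 6 calls held whichever library was left out.

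The lower block did not stop at 20 Mb. The nearest tested gene above that line was Ggh, a gamma-glutamyl hydrolase that starts at 20042052, with a log2 fold change of -0.50, and the nearest below was Wwp1. All 9 tested genes from 20 Mb to Mms22l, at 24496451 to 24602950, had log2 fold changes below 0, with a median of -0.62, and 7 fell by edgeR's adjusted p. The next tested gene, Klhl32, at 24612554 to 24851124, was at 0.46. From Klhl32 to 40 Mb, 22 of 24 tested genes were above 0, with a median of 0.42, and 8 rose by edgeR's adjusted p. Of all tested genes, 44.8% were below 0, 15.6% fell and 14.1% rose. The place of this sign change and the genes at it were chosen after their values were seen.

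On the near side, Mms22l, a replication fork repair protein, fell from 19.8, 19.5 and 21.4 CPM to 12.9, 13.5 and 11.4 CPM (log2 fold change -0.68, SE 0.10, edgeR adjusted p = 0.00282). Fbxl4, a mitochondrial F-box protein, fell by 0.93 (edgeR adjusted p = 0.00472), Tstd3 by 0.96 (edgeR adjusted p = 0.00709) and Ccnc, the cyclin of the Mediator kinase module, by 0.71 (edgeR adjusted p = 0.0127). On the far side, Ndufaf4, a complex I assembly factor, rose from 23.8, 17.6 and 26.1 CPM to 38.4, 35.8 and 35.8 CPM (0.70, SE 0.15, edgeR adjusted p = 0.0107). Ufl1, the ligase of the ubiquitin-like modifier UFM, rose by 0.59 (edgeR adjusted p = 0.0236), while Klhl32, at 2.44, 3.66 and 3.60 CPM in MTC and 4.66, 4.73 and 3.98 CPM in MTC-R, did not pass (edgeR adjusted p = 0.114). The gap between the annotated ends of the last low gene and the first high gene is thus short, and no tested gene lies in it. Coq3 and Faxc also fell, and Usp45 and Pnisr did not pass the test, with log2 fold changes of -0.54 and -0.28, and -0.28 and -0.013 without MTC replicate 3. The calls of Mms22l, Fbxl4 and Tstd3 held whichever library was left out, while those of Ggh, Ccnc, Coq3, Faxc, Ndufaf4 and Ufl1 were each lost without at least 1 library.

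**Figure D3:**
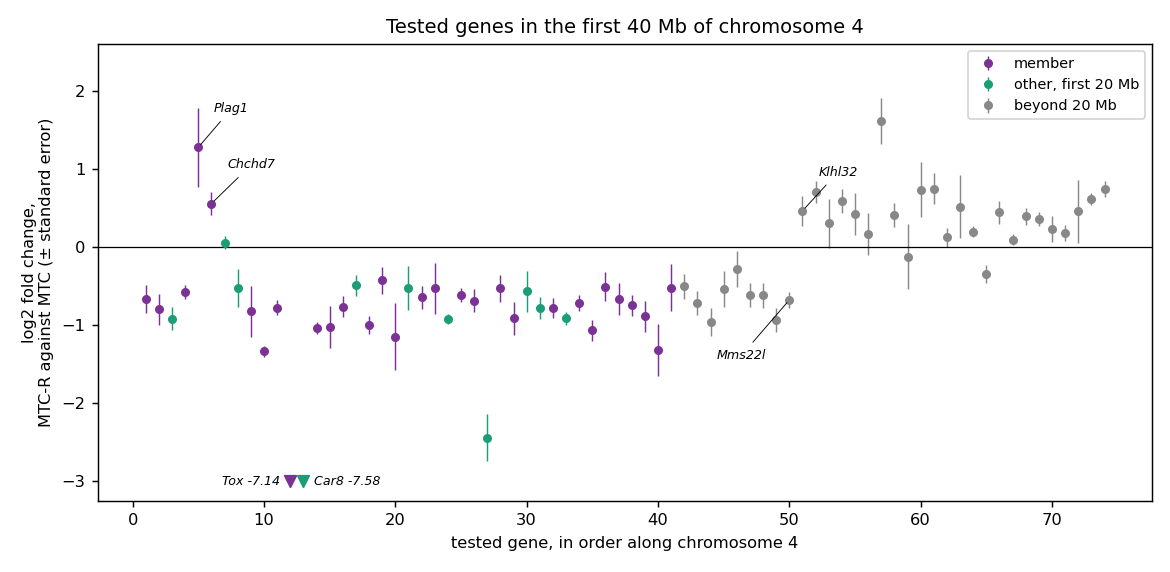
Log2 fold change (MTC-R against MTC, with its standard error) of the 74 tested genes of the first 40 Mb of chromosome 4, in gene order; purple points are members, green points other genes of the first 20 Mb and grey points genes beyond it. Points lie mostly between -1.5 and -0.4 up to Mms22l and mostly above 0 from Klhl32 on, and the 2 triangles at the bottom mark Tox and Car8, whose fitted values of -7.14 and -7.58 are off the scale and, resting on 0 or few counts in MTC-R, are not bounds.

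The rest of the chromosome was slightly higher in MTC-R. In steps of 10 Mb, the median log2 fold change was -0.79 over 16 tested genes and -0.72 over 25 in the first 20 Mb, -0.39 over 16 from 20 to 30 Mb, and 0.40 over 17 from 30 to 40 Mb. Beyond 40 Mb it was 0.21 over 665 genes, and each 10 Mb step lay between 0.12 and 0.50. Of these 665 genes, 161 rose and 50 fell, where 14.1% and 15.6% of all tested genes did. Without MTC replicate 3 the median was -0.15 from 20 to 30 Mb and 0.45 from 30 to 40 Mb, and beyond 40 Mb it was 0.12, with steps between 0.027 and 0.48. Among 137 windows of 20 Mb with at least 20 tested genes, the first window of chromosome 4 had the lowest median, -0.76, and the next lowest was -0.24. The stretch was chosen with these same log2 fold changes known, so this rank is a description and carries no test.

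The highest median among these windows, with the opposite sign, was that of the first 20 Mb of chromosome 5. Like those of the members, its values are a description and carry no test. The median log2 fold change of its 41 tested genes was 1.17, and the next highest window was at 0.40. Of the 41, 39 were above 0 and 32 rose by edgeR's adjusted p, against 14.1% of all tested genes. Taken by library, the median of each stretch lay on the same side of 0 in all 3 MTC-R libraries. MTC replicate 3 lay above the other MTC libraries in both.

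**Figure D4:**
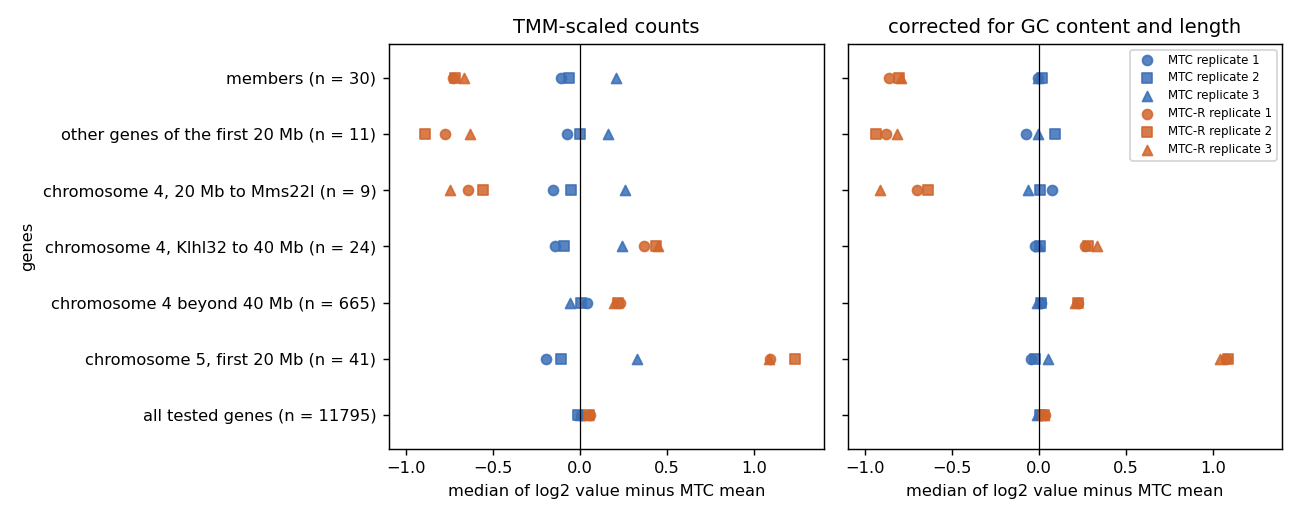
Median over each set of genes of the log2 value minus the MTC mean, by library, before (left) and after (right) the correction for GC content and length. Members, other genes of the first 20 Mb and genes up to Mms22l lie left of 0 in all MTC-R libraries, later genes of chromosome 4 and the first 20 Mb of chromosome 5 lie right of it, and the displacement of MTC replicate 3 is small on the right.

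Several members work in complexes or pathways whose other genes lie outside the first 20 Mb of chromosome 4, and the pooled median of those partners was near 0. By list the median log2 fold change ran from -0.24 for the partners of Sdcbp to 0.30 for those of Tmem67. Of 114 tested partners in 8 lists, 13 fell, 16 rose and 85 did not pass edgeR's adjusted p, with a median log2 fold change of 0.03. Of all tested genes 15.6% were called lower and 14.1% higher, so the numbers of partners called lie near the background and say nothing particular about them. Without MTC replicate 3, 39 fell and 30 rose, where over all genes 3227 (27.1%) were called lower and 3020 higher. Without any 1 MTC-R library, 4 to 7 fell and 9 or 10 rose, where 1077 to 1122 of all genes fell and 803 to 840 rose. Without MTC replicate 2, 6 fell, where 1222 of all genes did. With all 6 libraries 1841 of all genes fell and 1668 rose, so the partner numbers moved with those of all genes. The 6 partners named below with a log2 fold change above 1 in size (Cc2d2a, Nod1, Nod2, Sdcbp2, Sdc3 and Sdc2) passed whichever library was left out. The m6A writer complex of Virma had 1 of 7 lower, Rbm15b at -0.26. Of 13 Integrator subunits other than Ints8, 3 rose, Ints1, Ints10 and Ints13, by 0.25 to 0.51, and all 3 calls were lost with the correction for GC content and length (edgeR adjusted p = 0.119, 0.0747 and 0.0551), under which 1 subunit was called lower and 1 higher. Without MTC replicate 3 Ints1 was at 0.13. Among 31 other proteins of the small ribosomal subunit, 2 fell, Rps29 and Rps10, and 21 were below 0. With the correction 4 were called lower and 4 higher, and Rps10 lost its call (edgeR adjusted p = 0.0769).

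Partners of Nbn and Rad54b in break sensing and strand exchange gave 1 lower and 3 higher of 13. For this and the following lists, the shares over all tested genes were 15.6% lower and 14.1% higher. Rad51c, a homologous recombination protein, rose by 0.86 on the log2 scale (edgeR adjusted p = 0.00318), Rad54l, the closest relative of Rad54b, by 0.65 (edgeR adjusted p = 0.00328) and Mdc1 by 0.21, and H2ax fell by 0.43. The call of Mdc1 was lost with the correction (edgeR adjusted p = 0.264). Among 15 other complex I assembly factors, Ndufaf4 and Ecsit rose and Tmem186 and Timmdc1 fell. Of 14 transition zone partners of Tmem67, 4 rose and 1 fell. Cc2d2a rose from 43.7 ± 2.16 to 105 ± 3.09 CPM (SD, n = 3; log2 fold change 1.26, SE 0.07, edgeR adjusted p = 3.86e-05).

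In the NOD pathway, both receptors above Ripk2 rose while Ripk2 itself was lower. Nod1, a sensor of bacterial peptidoglycan, rose from 17.6 ± 2.82 to 35.5 ± 1.01 CPM (SD, n = 3; log2 fold change 1.01, SE 0.12, edgeR adjusted p = 0.0011). Nod2, a second such sensor, rose from 4.98 ± 0.983 to 11.0 ± 1.32 CPM (SD, n = 3; 1.15, SE 0.18, edgeR adjusted p = 0.00325). Of the 12 tested genes of the list, 3 rose and 1, Ikbkg, fell, where 14.1% and 15.6% of all tested genes did.

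Of 9 tested partners of Sdcbp, 5 fell and 1 rose, where 15.6% and 14.1% of all tested genes did. The list is short and was drawn up with earlier results of these data known. Sdcbp2, its closest paralog, fell from 80.2 ± 5.77 to 35.4 ± 0.501 CPM (SD, n = 3; log2 fold change -1.18, SE 0.08, edgeR adjusted p = 8.4e-05). Among the syndecans, cell surface proteoglycans that syntenin-1 binds, Sdc3 fell from 19.2 ± 1.01 to 6.95 ± 0.818 CPM (SD, n = 3; -1.47, SE 0.12, edgeR adjusted p = 0.000183), Sdc1 fell by 0.51 and Sdc4 by 0.33. Sdc2 went the other way, from 5.70 ± 0.182 to 18.2 ± 1.59 CPM (SD, n = 3; 1.67, SE 0.11, edgeR adjusted p = 8.31e-05). Pld2, a phospholipase, fell by 0.24. The epithelial markers were lower in the same libraries, as given above, and their part in these values was not tested.

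**Figure D5:**
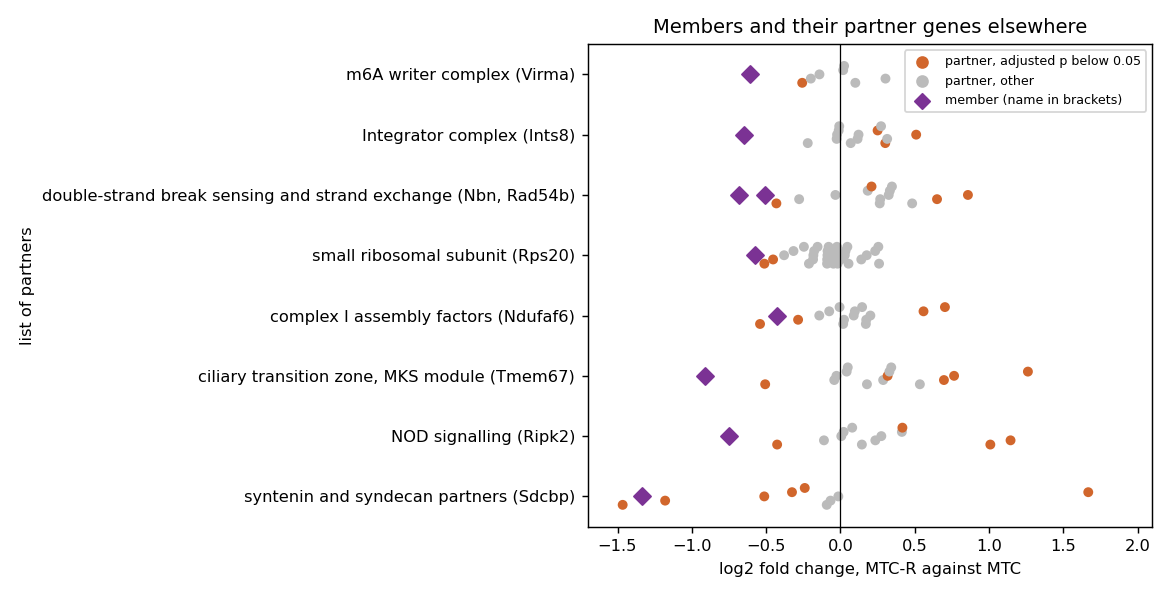
Log2 fold change (MTC-R against MTC) of the 114 tested partner genes in 8 lists, each list named with its member or members on chromosome 4. Purple diamonds (members) lie left of 0 in every list, orange points (partners with an edgeR adjusted p below 0.05) lie on both sides, and most partners are grey and near 0.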

How the data were processed

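Poly-A RNA was sequenced from MTC and MTC-R. Per the study's methods, the authors used fastp 0.22.0 for filtering and HISAT2 for mapping, and they deposited raw read counts per gene; build, annotation, counter and use of strand are not given in the sources used here. The columns of the authors' own comparison (fold changes and p-values) were not used. The 6 sample tables equalled the series table.

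Of the 21959 genes, 11795 passed filterByExpr by line (minimum count 10). They were tested with TMM scaling and edgeR 4.0.16 (robust glmQLFit, glmQLFTest, R 4.3.3), with Benjamini-Hochberg adjustment over all of them. SE is the log2 fold change divided by the root of F. GENCODE M21 (GRCm38) gave position, length and GC content by Ensembl identifier for 21851 genes. Each library was corrected for GC content and length by loess (span 0.3) as an alternative.

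The members and lists were chosen with earlier results of these data known. Values in every library were given for the 6 lowest and 4 highest members by log2 fold change and the 5 highest in CPM per kilobase of annotated exon. They were also given for those at the ends and those not passing the filter. Dpy19l4 was added after its values were seen. Of other genes, those tested in the stretch and partners called by adjusted p whose log2 fold change exceeded 1 in size were named by rule, and further partners and genes beyond 20 Mb after their values were seen. For 1 gene in 3 and 3 libraries, the smallest two-sided p of an exact permutation test is 0.1. Replicate numbers were not used as pairs in the main fit. Correlations of deviations were 0.15, -0.02 and 0.17 between libraries of equal number and -0.23 to 0.15 between those of unequal number. The promoter table used here held 0 of the 36 members, so no sequence is shown.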

Additional observations from a re-analysis of the deposited data

How the results depend on the processing

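Over 14 alternatives, 408 of 418 log2 fold changes of members moved by less than the spread between libraries, 10 moved more and 0 changed sign. The number of members called lower was 21, with 25 by DESeq2 and 27 with the correction for GC content and length. It was 12 to 24 when 1 library was left out, 13 without MTC-R replicate 1 and 12 without MTC-R replicate 2. Over all genes, 1841 were called lower in the main fit, 1957 by DESeq2 and 2349 with the correction. Without MTC-R replicate 1 the number was 1122, and without MTC-R replicate 2 it was 1077. The median log2 fold change of the members was -0.83 to -0.65 when 1 library was left out. Of other tested genes of the stretch, 6 to 9 were called lower and 0 higher when 1 library was left out. With the stretch ended at 10 Mb, 2 were lower, and with 30 Mb, 14 were lower and 3 higher. The log2 fold change of Gm11808, 0.06, ranged from -0.071 to 0.103 when 1 library was left out and was below 0 without MTC replicate 3. The call of Ggh was lost with DESeq2, library size alone, no filter, the correction and 5 of 6 left-out libraries. Calls of Cfap418, Faxc, Coq3, Ccnc, Ufl1 or Ndufaf4 were lost when 1 library other than MTC replicate 1 or 3 was left out. The median from 20 to 40 Mb ranged from 0.17 to 0.36 and that of the first 20 Mb of chromosome 5 from 1.05 to 1.31.

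Over all tested genes, 1841 were called lower and 1668 higher, the latter 2579 with the correction for GC content and length. Leaving out 1 library gave 1077 to 3227 lower and 803 to 3020 higher, with the highest numbers without MTC replicate 3, and with over 1.5 times fewer calls in each direction without MTC replicate 2 or any MTC-R replicate. Partners called lower ranged from 4 to 39 and higher from 9 to 30, again with the highest numbers without MTC replicate 3. With the replicate number as a block, 23 members were called lower with a median of -0.74, and Cfap418 lost its call. The block together with the correction, added after seeing the data, gave 2583 genes and 26 partners higher. The causes were not tested. The members' median level of 14.1 CPM in MTC limits the precision of single members, and those near 1 CPM, such as Rmdn1, Plag1 and Tox, rest on few reads.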
